A study of Mus musculus with 9 samples.

Results

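The unfolded protein response and the integrated stress response were followed through 10 of their genes, Hspa5, Hsp90b1, Xbp1, Eif2ak3, Atf4, Ddit3, Atf3, Trib3, Chac1 and Asns. They were chosen by symbol from the sensors, transcription factors, chaperones and targets of both responses, out of 23607 genes in the tables. Eif2ak3 is the only ER stress sensor among them. The data are RNAseq counts after immunoprecipitation of phosphorylated ribosomal protein S6 (pS6-IP) from the olfactory epithelium (OE) of 9 C57BL/6 mice. S6 becomes phosphorylated in an olfactory sensory neuron (OSN) that an odorant has activated, and the antibody then brings down its ribosomes together with the mRNAs being translated. The 3 control mice received distilled water for 1 hr, and heptanal, an aldehyde odorant, was given for the same time at 1% to 3 mice and at 100% to 3 others. Each group had 1 mouse of postnatal day 22, 1 of day 21 and 1 of day 18. The study's methods state that the mice of a replication were littermates of the same sex, and that the mice rested in clean containers before the exposure. The labels name no litters, so each day was taken as 1 replication and its mice as littermates. No group carried a transgene or a deletion in the labels.

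The OE is a tissue of several cell types, and the IP enriches but does not purify the active neurons. The summed level of 5 mature OSN markers (Adcy3, Ano2, Cnga2, Gnal and Omp) lay between 4232 and 14875 CPM, the counts scaled to a common library size, so the labelled tissue carried its defining mRNAs in every mouse. Of 14941 genes with enough counts to be tested, all 10 stress response genes were included. The total estimated count per mouse ranged from 5438466 to 9707543.

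When unfolded proteins gather in the endoplasmic reticulum (ER), the chaperone BiP, encoded by Hspa5, leaves the sensors IRE1, ATF6 and PERK. IRE1 splices the mRNA of Xbp1, ATF6 is cut and enters the nucleus, and PERK, encoded by Eif2ak3, phosphorylates the initiation factor eIF2. That phosphorylation is the common step of the integrated stress response, which other kinases start in response to amino acid shortage, viruses or loss of heme. It slows translation in general while it favours translation of Atf4, and ATF4 with its partner CHOP, encoded by Ddit3, turns on further genes. In OSNs the PERK branch has a further known role, since the onset of odorant receptor (OR) expression engages it and leads to translation of the related factor Atf5. The counts give the mRNA recovered with ribosomes, and report neither the splicing of Xbp1 nor the amount or activity of any protein.

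The promoters of 3 of the genes are shown because they carry the letters through which the responses are known to act, and because the results turn on these genes. The sequences are the 250 bases before the RefSeq start site on GRCm38.p6, 5′ to 3′ on the strand of the gene. In Hspa5 and Hsp90b1 the capitals mark the ER stress element (CCAAT, any 9 bases, CCACG, on either strand), to which ATF6 binds with NF-Y. In Atf3 the capitals mark the C/EBP-ATF response element (TGATGNAAN, on either strand), to which ATF4 binds with C/EBP partners.
Hspa5, chr2:34771840-34772089, plus strand: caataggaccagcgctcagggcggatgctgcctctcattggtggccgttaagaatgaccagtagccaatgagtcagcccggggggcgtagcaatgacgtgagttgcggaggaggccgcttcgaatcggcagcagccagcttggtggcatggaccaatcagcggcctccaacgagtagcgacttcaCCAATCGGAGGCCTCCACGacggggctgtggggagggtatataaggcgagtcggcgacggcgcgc
Hsp90b1, chr10:86705445-86705694, minus strand: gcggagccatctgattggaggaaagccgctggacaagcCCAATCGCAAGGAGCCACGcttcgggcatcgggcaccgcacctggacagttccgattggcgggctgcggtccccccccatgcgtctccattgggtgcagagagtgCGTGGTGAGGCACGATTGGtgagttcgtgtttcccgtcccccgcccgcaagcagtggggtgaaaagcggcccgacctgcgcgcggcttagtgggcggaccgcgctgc
Atf3, chr1:191183334-191183583, minus strand: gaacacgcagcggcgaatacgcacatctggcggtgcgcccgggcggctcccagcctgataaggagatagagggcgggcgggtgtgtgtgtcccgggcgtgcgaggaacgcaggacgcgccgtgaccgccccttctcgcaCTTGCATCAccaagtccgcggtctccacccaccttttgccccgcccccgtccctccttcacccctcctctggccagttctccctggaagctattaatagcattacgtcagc

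All 10 genes had 1 promoter each in the RefSeq table. The ER stress element occurred in 37 of 32851 promoters of that length, or 0.113%, and in 2 of the 10 genes. Hspa5 held it at bases 65 to 47 before its start, and Hsp90b1 held it at bases 212 to 194 and, on the other strand, at bases 107 to 89. The C/EBP-ATF response element occurred in 3.44% of all promoters and in 3 of the 10, at bases 111 to 103 of Atf3, 194 to 186 of Chac1 and 23 to 15 of Asns. The AP-1 site (TGANTCA) occurred in 6.75% of all promoters and in those of Hspa5, Ddit3 and Eif2ak3. The UPR element (TGACGTGG), found in 0.563% of all promoters, and the cyclic AMP response element (TGACGTCA), found in 1.55%, were in none of the 10 windows. Of 26 further genes of ER folding and degradation, 19 had a promoter in the table, and 7 of these held the ER stress element (Pdia6, Calr, Canx, Dnajc3, Creld2, Syvn1 and Derl3). These are matches of letters and were not measured as binding.

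The levels of the 10 mRNAs spanned a wide range, and the order of the 3 most abundant was nearly the same in every mouse. On the scale of CPM per kilobase of exon, Atf4 was the most abundant, with 897 ± 246 (SD, n = 9 mice), above Xbp1 with 344 ± 76.9 in 9 of 9 mice. Xbp1 was above Ddit3, with 128 ± 26.5, in 9 of 9 mice, and Ddit3 was above Asns in 8 of 9. Asns, the asparagine synthetase that ATF4 induces, had 79.4 ± 25.4 CPM per kilobase, and the ER lumen chaperones Hsp90b1 (GRP94) and Hspa5 had 74.8 ± 42.0 and 62.8 ± 36.2. Asns was above Hsp90b1 in only 5 of 9 mice, Hsp90b1 was above Hspa5 in 8 of 9 and Hspa5 was above Chac1 in 6 of 9, so the order of these neighbours lies largely within their spread. Chac1, which degrades glutathione, and Trib3, a pseudokinase that restrains the response, followed with 36.0 ± 10.6 and 31.1 ± 4.11, and Chac1 was the higher of the pair in 6 of 9 mice. Atf3, an ATF/CREB repressor induced by stress and by neuronal activity, had 11.6 ± 6.92 and Eif2ak3 had 6.75 ± 1.35. Atf3 was the higher in 6 of 9 mice. The cDNA was primed at the poly(A) tail and amplified by PCR, so reads need not cover a whole transcript and levels per length are approximate. Together the 10 mRNAs took 0.344% ± 0.103 (SD, n = 3 mice) of all counts in controls, 0.316% ± 0.0336 at 1% heptanal and 0.322% ± 0.0659 at 100% heptanal.

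Exposure to heptanal for 1 hr was not followed by a detected change of any of the 10 mRNAs. Against control, 0 of 10 passed an adjusted p of 0.05 at 1% heptanal, where 0% of all genes tested were called, and 0 of 10 at 100% heptanal, where 0.301% were. Between the concentrations 0 of 10 passed, beside 0.0736% of all genes. All values are from edgeR's quasi-likelihood test with the postnatal day as a block and Benjamini-Hochberg adjustment over the 14941 genes, and the lowest adjusted p among the 10 was 0.9996 at 1% heptanal, 0.480 at 100% heptanal and 0.369 between the concentrations. At an unadjusted p of 0.05 the numbers were 0, 1 and 1 of 10, against 3.21%, 10.3% and 10.3% of all genes. The log2 fold changes of the 10 ran from −0.41 to 0.38 at 1% heptanal, with a median of −0.12 beside −0.01 for all genes tested. At 100% heptanal they ran from −0.44 to 0.98, with a median of −0.16 beside −0.002 for all genes.

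**Figure D1:**
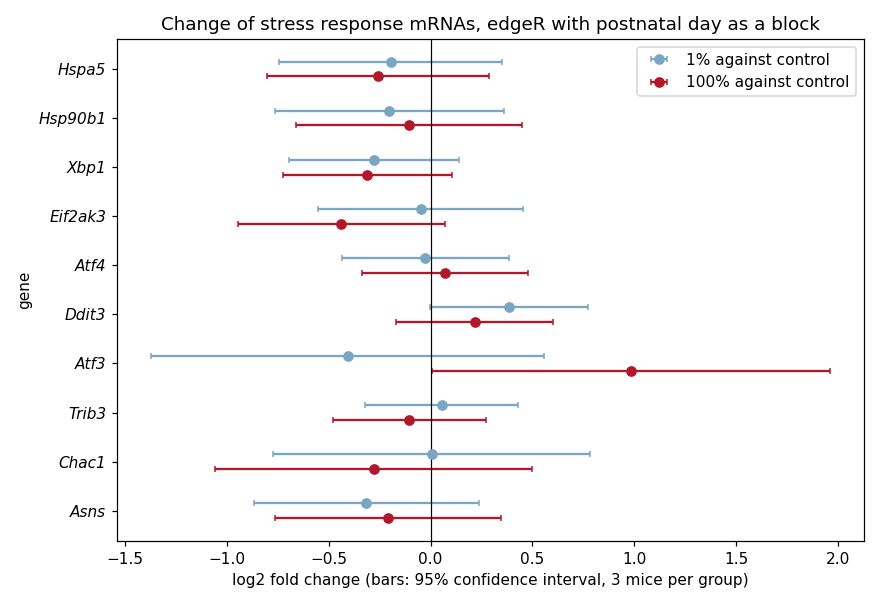
Log2 fold change of each of the 10 mRNAs (vertical axis) at 1% heptanal (blue) and 100% heptanal (red) against control on the horizontal axis. Points are estimates and bars are 95% confidence intervals from edgeR with 3 mice per group. The interval lies wholly above 0 for Atf3 at 100% heptanal, from 0.01 to 1.96, and crosses 0 for Atf3 at 1% heptanal and for the other 9 genes at both concentrations.

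Atf3 had the largest difference. In controls its level was 21.9, 9.99 and 30.2 CPM on postnatal days 22, 21 and 18, from 142, 71 and 239 estimated counts. At 1% heptanal it was 17.5, 10.9 and 16.4 CPM, and at 100% heptanal it was 19.6, 48.8 and 49.4 CPM. The day 21 and day 18 mice at 100% heptanal were thus the highest of all 9, while the day 22 mouse lay within the range of the controls. The ratio to the control of the same day was 0.895 on day 22, 4.88 on day 21 and 1.64 on day 18. The log2 fold change was 0.98 (SE 0.43, 95% confidence interval 0.01 to 1.96), with an unadjusted p of 0.0486 and an adjusted p of 0.480 by edgeR's quasi-likelihood test. Without the mice of day 21 the log2 fold change was 0.32, and without that of day 22 it was 1.44. Between the concentrations the groups did not overlap, as for 8.87% of all genes tested. Atf3 was higher at 100% than at 1% heptanal on 3 of 3 days, by 1.12, 4.46 and 3.01 times, and 16.9% of all genes tested were higher on every day. That log2 difference was 1.39 (SE 0.43), with an adjusted p of 0.369 by edgeR. It ranged from 0.77 to 1.91 when a mouse or a day was left out, with a lowest adjusted p of 0.236 by edgeR. By DESeq2 with the same block the adjusted p was 0.0655.

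**Figure D2:**
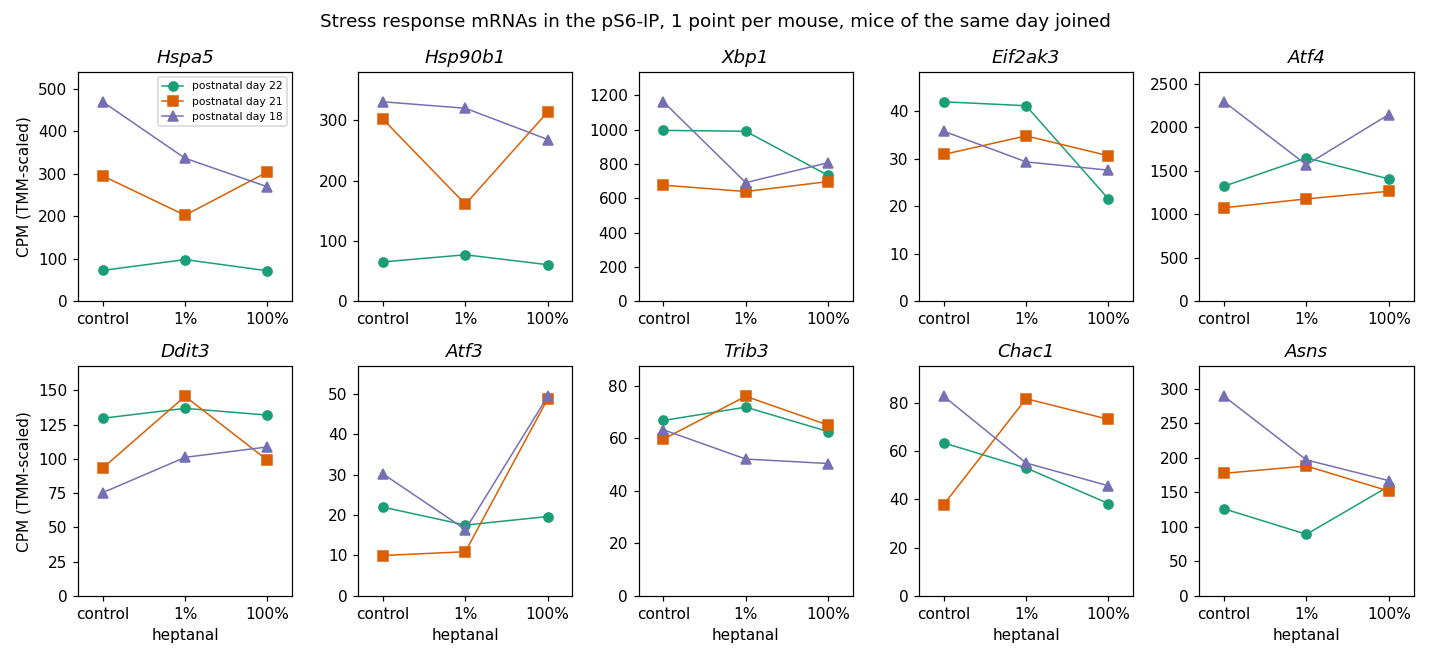
Level of each of the 10 mRNAs in CPM scaled by the TMM factors (vertical axes, each from 0) in control mice and at 1% and 100% heptanal (horizontal axis). Each point is 1 mouse, and lines join the mice of postnatal day 22 (green circles), 21 (orange squares) and 18 (purple triangles). For Hspa5 and Hsp90b1 the 3 mice of day 22 lie below the other 6, and for Atf3 the 2 highest points are the day 21 and day 18 mice at 100% heptanal.

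Eif2ak3 was the gene whose 100% heptanal and control groups did not overlap, which was so for 1 of 10 beside 9.49% of all genes tested. Its level was 42.0, 31.0 and 35.8 CPM in controls of day 22, 21 and 18, and 41.2, 34.9 and 29.4 CPM at 1% heptanal. At 100% heptanal it was 21.6, 30.7 and 27.6 CPM, from 189 to 243 estimated counts per mouse. The 100% heptanal mouse was below the control on 3 of 3 days, although the day 21 pair differed by little, with a ratio of 0.991 beside 0.513 on day 22 and 0.771 on day 18. Of all genes tested, 18% were lower on every day. It had a log2 fold change of −0.44 (SE 0.22, 95% confidence interval −0.95 to 0.07), with an adjusted p of 0.543 by edgeR. Without the day 22 mouse at 100% heptanal it was −0.19, and over all fits that left out a mouse or a day it ran from −0.65 to −0.19. Ern1, which encodes the sensor IRE1, had too few counts to be tested.

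Xbp1, whose spliced mRNA encodes the factor that induces ER folding and degradation genes, was measured at 996, 678 and 1163 CPM in controls of day 22, 21 and 18. At 1% heptanal it was 992, 640 and 692 CPM and at 100% heptanal 734, 698 and 808 CPM. The day 18 control stood highest, and the 1% heptanal mouse was below the control of its day on 3 of 3 days, with ratios of 0.995, 0.945 and 0.595, as were 11.7% of all genes tested. Its log2 fold change was −0.28 (95% confidence interval −0.69 to 0.14) at 1% and −0.31 (−0.73 to 0.11) at 100% heptanal. The adjusted p by edgeR was 0.9996 and 0.616. When a mouse or a day was left out the estimates ran from −0.46 (without the day 22 mouse at 1% heptanal) to −0.045 (without day 18) and from −0.49 (without day 21) to −0.12 (without the day 18 control).

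Atf4, the central factor of the integrated stress response, was estimated near 0 at both concentrations. Its level was 1324, 1077 and 2295 CPM in controls, 1651, 1179 and 1570 CPM at 1% heptanal and 1408, 1266 and 2149 CPM at 100% heptanal, in the order of day 22, 21 and 18. The groups overlapped, and day 21 was the lowest day in each group. The log2 fold change was −0.03 (95% confidence interval −0.44 to 0.38) at 1% and 0.07 (−0.34 to 0.48) at 100% heptanal, so an increase of Atf4 mRNA beyond a log2 of 0.48 lay outside the interval.

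At 1% heptanal 0 of 10 genes had groups that did not overlap with control, beside 3.94% of all genes tested. Ddit3, which encodes CHOP, a factor that promotes cell death under lasting stress, was higher than in the control of the same day on 3 of 3 days at both concentrations. This was so for 11.5% of all genes tested at 1% heptanal and 18.4% at 100%, and the 2 comparisons share their controls. It was measured at 130, 93.3 and 75.4 CPM in controls of day 22, 21 and 18. At 1% heptanal it was 137, 146 and 101 CPM and at 100% heptanal 132, 99.0 and 109 CPM. The groups overlapped, since the day 22 control was above the lowest mouse of either exposed group. The log2 fold change was 0.38 (SE 0.17, 95% confidence interval −0.003 to 0.77) at 1% heptanal and 0.22 (SE 0.17, −0.17 to 0.60) at 100% heptanal, with adjusted p of 0.9996 and 0.712 by edgeR. They ran from 0.21 to 0.53 and from 0.054 to 0.35 when a mouse or a day was left out. The gene model of Ddit3 on chromosome 10 (GRCm38 127290774 to 127296288) overlaps Mars and Gm4189 on the other strand, and the counting is not stated to use strand, so reads of these genes cannot be told apart.

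Of the chaperones Hspa5 and Hsp90b1 and the targets Trib3, Chac1 and Asns, none passed the test. Their estimates at 100% heptanal were below 0. Those of Atf4, Ddit3 and Atf3 were above 0, or 3 of the 10 genes beside 49.8% of all genes tested. Hspa5, the chaperone BiP, had a log2 fold change of −0.20 (95% confidence interval −0.74 to 0.35) at 1% and −0.26 (−0.80 to 0.28) at 100% heptanal. Hsp90b1 had −0.20 (−0.76 to 0.36) and −0.11 (−0.66 to 0.45). Neither gene was on the same side of its control on all days at either concentration. Of the targets of ATF4 and CHOP, Trib3 ranged from 50.4 to 76.0 CPM over the 9 mice, Chac1 from 37.9 to 82.7 and Asns from 89.2 to 289. Trib3 varied least, with log2 fold changes of 0.05 (−0.32 to 0.43) at 1% and −0.11 (−0.48 to 0.27) at 100% heptanal. Chac1 moved in opposite directions on different days, with ratios to control at 100% heptanal of 0.604, 1.93 and 0.552 on day 22, 21 and 18. Its log2 fold change was −0.28 (−1.06 to 0.50), and that of Asns was −0.21 (−0.76 to 0.34). Between the concentrations Trib3, Chac1 and Eif2ak3 were lower at 100% than at 1% on 3 of 3 days, or 3 of 10 genes beside 15.5% of all genes tested, and none passed the test.

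Of the markers of 8 cell types, only the mature OSN marker Omp passed the test at 100% heptanal. There the summed level of the 5 mature OSN markers was 2.01, 1.71 and 2.49 times that of the control on day 22, 21 and 18. It was 10545 to 14875 CPM beside 4232 to 8700 CPM in controls, with no overlap, and at 1% heptanal it was 1.17, 0.973 and 1.45 times the control. Omp, the olfactory marker protein, had a log2 fold change of 1.11 and an adjusted p of 0.0423 by edgeR. The summed level of 7 blood markers, haemoglobin genes and Alas2, of which 3 pairs of symbols hold the same reads, was 0.689, 0.461 and 0.611 times the control, with 0 of 7 past the threshold. Summed markers of sustentacular cells were 1.14, 1.39 and 1.43 times the control, and those of secretory cells 1.10, 1.36 and 1.25 times. Those of immature OSNs were 1.44, 1.03 and 1.26 times the control, and those of basal cells 0.612, 0.679 and 0.841 times. The secretory markers did not move together. Bpifa1 had a log2 fold change of 0.52, while Sox9 had −0.72, Muc5b −0.46, Aqp5 −0.04 and Scgb1c1 −0.03, with a median of −0.04. None of the 5 markers each of immature OSNs, sustentacular cells, basal cells, secretory cells and immune cells, nor of the 4 of respiratory ciliated cells, passed the test. More cells of a type and more recovered RNA per cell cannot be told apart in such samples, and the part of this shift in the values of the 10 genes was not tested. If the 5 mature OSN markers instead of all genes set the scale, the median log2 fold change at 100% heptanal was −1.04 for all genes tested and −1.21 for the 10, a difference of −0.17 beside −0.16 on the reported scale. On that scale 9 of the 10 were called lower, as part of 9615 genes called, and the log2 fold change of Atf3 was −0.08.

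The wider pathway gave the same count. None of 26 genes of ER folding and degradation, of 12 tested sensors, kinases and phosphatase subunits, or of 24 tested targets of ATF4 and CHOP passed the adjusted threshold in any of the 3 comparisons of heptanal groups. At an unadjusted p of 0.05 and 100% heptanal, 0 of the 26 were higher and 3 lower, 0 of the 12 were higher and 2 lower, and 1 of the 24 was higher and 2 lower, beside 10.3% of all genes in either direction. The median log2 fold changes at 100% heptanal were −0.23, −0.01 and −0.13 in the order of these lists, beside −0.002 for all genes. At 1% heptanal they were −0.08, −0.08 and −0.06, beside −0.01. Of the listed genes that were lower at 100% heptanal, Phgdh and Eif2s1 had the lowest p and were named after their values were seen. Their log2 fold changes were −0.67 and −0.58, with adjusted p of 0.224 and 0.229 by edgeR.

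**Figure D3:**
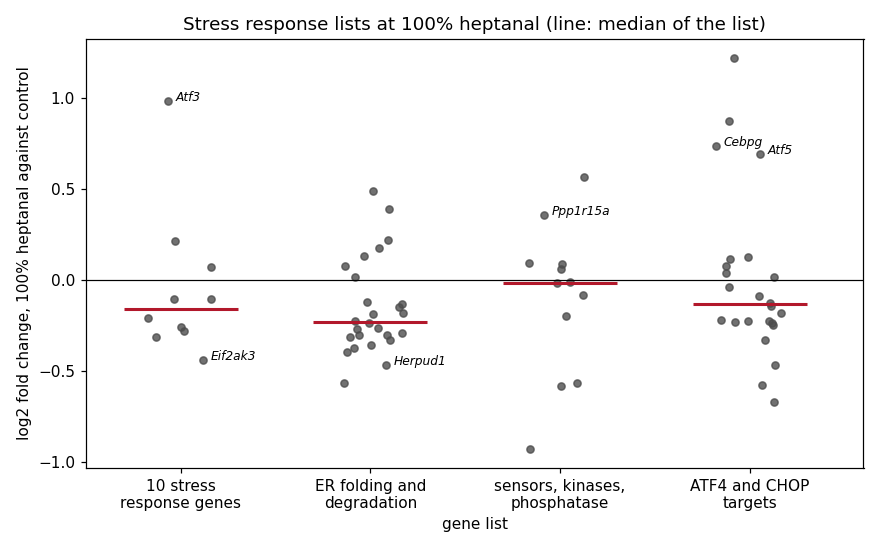
Log2 fold change at 100% heptanal against control (vertical axis) of each tested gene of the 4 stress response lists (horizontal axis). Each point is 1 gene, spread sideways for view, and the red line is the median of the list. The medians are −0.16, −0.23, −0.01 and −0.13, and no gene passed an adjusted p of 0.05. Atf5 came closest.

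Atf5 was the gene of these lists nearest to the threshold, and it is the factor through which PERK signalling acts in OSNs. Its level was 415, 496 and 514 CPM in controls of day 22, 21 and 18, and 490, 598 and 621 CPM at 1% heptanal. At 100% heptanal it was 720, 721 and 852 CPM, so that every 100% heptanal mouse was above every other mouse. The 100% heptanal and control groups did not overlap for 9.49% of all genes tested, and the concentrations for 8.87%. These shares count both directions and 1 pair of groups at a time, so they are not the share for this pattern. The log2 fold change of Atf5 was 0.69 (SE 0.12, 95% confidence interval 0.41 to 0.96), with an adjusted p of 0.0774 by edgeR. Between the concentrations it was 0.43 (SE 0.12), with an adjusted p of 0.331. The summed OSN markers were higher on the same 3 days, and their part in this difference was not tested. Herpud1, a component of ER-associated degradation induced by the unfolded protein response, had 325 to 387 CPM at 100% heptanal beside 396 to 570 CPM in controls. Its log2 fold change was −0.47 (95% confidence interval −0.87 to −0.07) with an adjusted p of 0.404. P4hb, a protein disulfide isomerase, had −0.33 (−0.77 to 0.12). Ppp1r15a (GADD34), the phosphatase subunit that reverses eIF2 phosphorylation, had 156, 212 and 202 CPM at 100% heptanal beside 164, 148 and 132 CPM in controls. Its log2 fold change was 0.36 (−0.002 to 0.71) with an adjusted p of 0.488, and Mbtps1, the protease that cuts ATF6, had −0.02 (−0.33 to 0.30). Cebpg, a dimer partner of ATF4, had 0.74 (−0.18 to 1.65). Its level was 105, 436 and 388 CPM at 100% heptanal beside 26.7, 410 and 388 CPM in controls of day 22, 21 and 18. The difference thus lay mainly in the day 22 pair.

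Among the 10 genes, Hspa5 and Hsp90b1 differed more between postnatal days than between exposures. This did not hold for all 10. Atf3 at 100% heptanal was 4.88 times its control on day 21, while its day means differed by 1.62 times. The comparison between days was added after the values had been seen. Of the 10 genes, 3 differed between days at an adjusted p of 0.05 by edgeR, beside 25.9% of all genes tested, which is a share close to the background. Hspa5 had 73.0, 98.3 and 72.0 CPM in the control, 1% and 100% heptanal mice of day 22. On day 21 it had 295, 203 and 304 CPM, and on day 18 it had 469, 337 and 270 CPM. Hsp90b1 had 65.5, 77.3 and 60.8 CPM on day 22, 302, 161 and 314 CPM on day 21, and 331, 320 and 268 CPM on day 18. In both genes all 3 mice of day 22 lay below all 6 others, as for 15% of all genes tested. The mean of day 18 was 4.42 times that of day 22 for Hspa5 (adjusted p = 0.00282) and 4.52 times for Hsp90b1 (adjusted p = 0.00271). Without the mice of day 22 the adjusted p by edgeR was 0.333 for Hspa5 and 0.540 for Hsp90b1, and 0 of 10 genes and 111 of all genes were called.

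Atf4 differed as well, with 1461, 1174 and 2005 CPM on day 22, 21 and 18 (adjusted p = 0.0338 by edgeR). Its call was lost in 9 of 12 fits that left out a mouse or a day, with an adjusted p of up to 0.183. Asns had 125, 173 and 218 CPM on the same days, with an adjusted p of 0.0941 by edgeR and 0.0309 by DESeq2 with the same block, which called 4 of the 10 genes. Xbp1 had 907, 672 and 888 CPM (adjusted p = 0.191), and Ddit3 had 133, 113 and 95.1 CPM (adjusted p = 0.122). Eif2ak3, Trib3, Chac1 and Atf3 differed by 1.13 to 1.62 times between the highest and the lowest day, with adjusted p of 0.335 to 0.871.

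The genes that share the ER stress element with Hspa5 and Hsp90b1 did not follow them together. Of the 26 genes of ER folding and degradation, 7 differed between days, or 26.9% beside 25.9% of all genes tested, so the share is that of the background. Hspa13 had means of 0.364, 5.51 and 9.92 CPM on day 22, 21 and 18, the first of which is near the level that 3 counts give. Higher on day 18 than on day 22 were the ER oxidases Ero1l (3.25 times) and Ero1lb (2.06 times), and the lectin chaperone Canx (1.97 times). Lower on day 18 were Calr (0.608 times), the lectin chaperone that pairs with Canx, and Sel1l (0.672 times), while Sec61b was lowest on day 21 (109 CPM). Of the 7 genes of the list that held the ER stress element, Canx was thus higher, Calr was lower and the other 5 did not pass the test. Hyou1, a further ER chaperone, had 51.4, 55.3 and 57.7 CPM on day 22, 21 and 18, and Pdia6 had 152, 142 and 159 CPM. The genes in this paragraph were named after their values were seen. Among the other lists, 4 of 12 sensors, kinases and phosphatase subunits and 5 of 24 targets of ATF4 and CHOP differed between days, or 33.3% and 20.8% beside the same 25.9%. Cebpg was among them, with means of 52.7, 393 and 404 CPM (adjusted p = 0.00394).

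The differences between days moved with base composition across all genes. GC content of the longest protein-coding transcript (GENCODE) was known for 13573 of the 14941 genes, or 90.8%. Across these genes, which are not independent replicates, the log2 ratio of day 18 over day 22 had a Spearman correlation with GC content of −0.498, that of day 21 over day 22 of −0.459 and that of day 18 over day 21 of −0.201. In the quintile of genes with the lowest GC content, 32.1% to 44.4%, the median log2 ratio of day 18 over day 22 was 1.11 and 42.9% of genes differed between days. In the quintile with the highest GC content the median was −0.26 and 17.5% differed. Hsp90b1, with 43.8% GC, lay in the lowest quintile, and Hspa5 (45.6%) and Asns (47.7%) lay in the second lowest, whose median was 0.26. Their own log2 ratios were 2.17, 2.14 and 0.80. The other 7 genes had 51.2% to 58.2% GC. Of the 7 ER genes called, Hspa13, Ero1l, Ero1lb and Canx were in the lowest quintile, and Calr, Sel1l and Sec61b were not. The blood markers also moved with the day, from a mean of 13655 CPM on day 22 to 1973 CPM on day 18, with 7 of 7 called. Between days 4 of 5 mature OSN, 3 of 5 immature OSN, 4 of 5 secretory, 2 of 5 sustentacular, 2 of 5 immune, 1 of 5 basal and 2 of 4 respiratory ciliated markers were called as well. The median ratio of day 18 over day 22 was 0.776 for mature OSN, 1.56 for immature OSN and 0.645 for secretory markers. The part of base composition or of these cell types in the levels of Hspa5 and Hsp90b1 was not tested. Age and litter cannot be told apart if each day holds 1 litter. The sample titles of day 22 begin with YJC and those of day 21 and day 18 with YJE, and the meaning of these letters is not given. Whatever they stand for cannot be told apart from day 22 either.

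**Figure D4:**
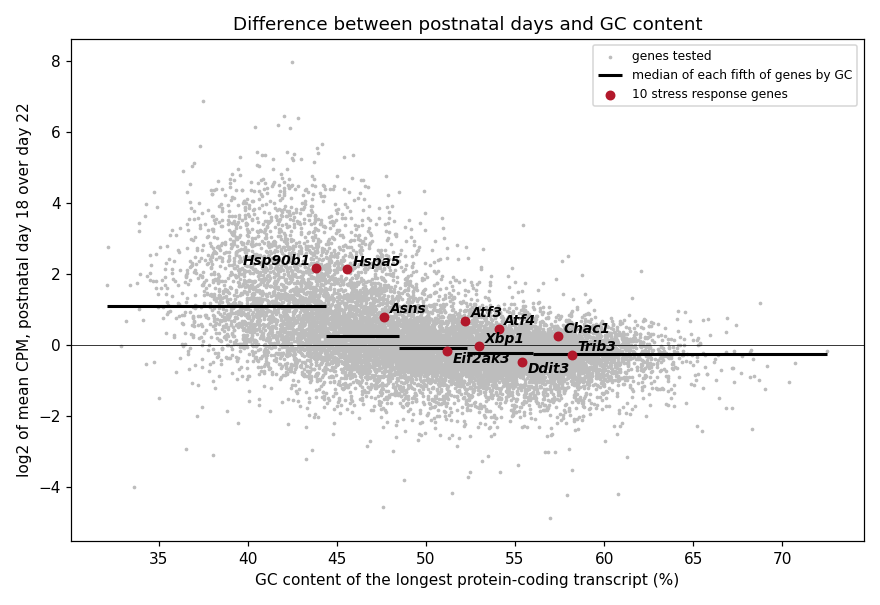
Log2 ratio of mean CPM on postnatal day 18 over day 22, 3 mice each (vertical axis), against GC content of the longest protein-coding transcript in percent (horizontal axis) for 13573 genes (grey). Black bars are the medians of 5 equal groups of genes by GC content, from 1.11 in the lowest to −0.26 in the highest, and red points are the 10 stress response genes. Hsp90b1 and Hspa5, at 2.17 and 2.14, lie above the medians of their groups.

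Base composition was also set against the comparisons with heptanal, which were made within days. The log2 fold change at 100% heptanal had a Spearman correlation with GC content of −0.109 across the same genes, with medians of 0.07 in the lowest and −0.04 in the highest quintile. At 1% heptanal it was 0.276, with medians of −0.21 and 0.06. At 1% heptanal the 3 of the 10 with the lowest GC content, Hspa5, Hsp90b1 and Asns, had log2 fold changes of −0.20, −0.20 and −0.32. Eif2ak3 (51.2% GC), Atf3 (52.2%), Xbp1 (53.0%) and Atf4 (54.1%) had −0.05, −0.41, −0.28 and −0.03. Ddit3 (55.4% GC), Chac1 (57.4%) and Trib3 (58.2%) had 0.38, 0.006 and 0.05. The part of base composition in these values was not tested.

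The genes whose levels were most like those of Atf3, Eif2ak3 and Xbp1, the 3 with the lowest p at 100% heptanal, were found by Pearson correlation of log2 CPM after each day's mean was removed, over 9 mice. For Atf3 these were the OR genes Olfr1497 (r = 0.981), Olfr111 (r = 0.973) and Olfr597 (r = 0.970). Their mean levels were low, at 0.830, 1.68 and 2.35 CPM. None of these OR genes passed the test at 100% heptanal against control, with adjusted p of 0.694, 0.652 and 0.262 by edgeR. For Eif2ak3 the most alike genes were Gm2a (r = 0.982), Gm5088 (r = 0.981) and Myl1 (r = 0.980). For Xbp1 they were Rpn1 (r = 0.987), Tmem115 (r = 0.981) and Sil1 (r = 0.964). They are the highest among all genes tested, and the points share 9 libraries, so the coefficients are a description of these mice.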

How the data were processed

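Bowtie alignment to mm10 and BEDTools counting on annotated genes, with separate gene models for ORs, were done by the authors (versions not given in the sources used here). The deposited estimated counts also hold reads with several possible genes, which the authors distributed with a rescue scheme, and the deposited counts of unique reads do not. Libraries were made from poly(A)-primed, PCR-amplified cDNA. The deposited tables have no header. Of 20 value columns, the first was taken, from its values, as counts of uniquely mapped reads, and the last as estimated counts after the rescue. Both are raw, with 1 table per mouse. Estimated counts were rounded and used throughout. The rescue added 23.9% to 30.5% of a library, and among the 10 genes reads for Hsp90b1 only.

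The test was the quasi-likelihood F test of edgeR 4.0.16 (R 4.3.3) after TMM scaling and filterByExpr, fitted to all 9 mice with the postnatal day as a replicate block and Benjamini-Hochberg adjustment at 0.05. The block was used because the methods state that mice of a replication were littermates, and each day was taken as 1 replication. Deviations from the group means correlated in every one of 9 pairs of the same day (r = 0.177 to 0.755, mean 0.558). In 18 pairs of different days r ran from −0.761 to 0.429, with a mean of −0.264. That negative mean follows largely by construction, since the deviations of a group cancel over its days. Standard errors are the fold change over the square root of F. CPM are TMM-scaled, and 3 counts equal 0.309 to 0.552 CPM, a floor that covers counting error only. Per-gene lengths and GC content are from GENCODE M21, promoters from RefSeq. No pair of mice of a group had counts within sampling noise. The fit was tested on simulated data.

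The 10 genes, the lists and the tests were chosen with earlier results of these data known, and the test between days was added after its values were seen. Named were all 10 genes, per pathway list the genes past the threshold or else the 2 with the highest mean CPM, and the 3 genes most like each of the 3 with the lowest p. Alternatives were other scalings, filters, columns, DESeq2 1.42.0 and leaving out each mouse or day. Figures were drawn with matplotlib 3.10.9.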

Additional observations from a re-analysis of the deposited data

How the results depend on the processing

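With 3 mice per group, small changes could be missed. The confidence intervals given above are for single genes, are not adjusted for the number of genes tested and do not mark a limit of detection. Among the 10 genes and the pathway lists, several genes at 100% heptanal had intervals that excluded no change and were still not called. These were Atf3 and Atf5, which were higher, and Herpud1, Ero1l, Pdia6, Eif2s1, Nck1, Phgdh and Aars, which were lower. None of the 10 genes was called in a comparison of heptanal groups under any alternative except the scaling to mature OSN markers, which called 9 of 10 at 100% heptanal and 6 of 10 between the concentrations, all lower, and 5 of 10 between days. That scaling moved the median log2 fold change of all genes tested by construction, to −1.04 at 100% heptanal, −0.77 between the concentrations and −0.26 at 1%, and called 9615, 6527 and, between days, 6950 genes. It turned Trib3 (−0.20) and Chac1 (−0.28) at 1% heptanal, Atf4 (−0.98), Atf3 (−0.084) and Ddit3 (−0.82) at 100%, and Hsp90b1 (−0.67), Atf4 (−0.71) and Asns (−0.68) between the concentrations. Without the replicate block Hspa5 was at 0.018 between the concentrations, and scaled to library size only Atf4 was at 0.013 at 1% heptanal.

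The number of all genes called at 100% heptanal, 45, became 2 without the replicate block, 25 with library size only, 263 with DESeq2, 75 with no filter and 130 with the 6 mice compared. Between the concentrations, 11 became 2 without the block, 204 with DESeq2, 26 with no filter and 0 with the 6 mice compared. At 1% heptanal DESeq2 called 3. The causes were not tested. The replicate block changed no call of the 10 genes.

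When a mouse or a day was left out, 0 of the 10 genes were called in every heptanal comparison, and all genes called ran from 1 to 60 at 100% heptanal, 0 to 20 between the concentrations and 0 to 3 at 1%. Between days 0 to 4 of the 10 genes and 111 to 3558 genes were called. Log2 fold changes near 0 changed sign. At 1% heptanal the ranges were −0.52 to 0.033 for Hspa5, −0.44 to 0.14 for Hsp90b1, −0.22 to 0.22 for Atf4, −0.20 to 0.077 for Eif2ak3, −0.073 to 0.22 for Trib3 and −0.46 to 0.35 for Chac1. At 100% they were −0.53 to 0.019 for Hspa5, −0.39 to 0.030 for Hsp90b1, −0.019 to 0.25 for Atf4, −0.23 to 0.043 for Trib3, −0.80 to 0.066 for Chac1 and −0.56 to 0.079 for Asns. Between the concentrations they were −0.41 to 0.22 for Hspa5, −0.32 to 0.34 for Hsp90b1, −0.20 to 0.17 for Xbp1, −0.10 to 0.28 for Atf4, −0.32 to 0.010 for Ddit3 and −0.28 to 0.33 for Asns. The adjusted p between days ran from 0.00133 to 0.333 for Hspa5, 0.000193 to 0.540 for Hsp90b1 and 0.0131 to 0.183 for Atf4.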
